A study of Mus musculus with 9 samples.

Results

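The difference of the strain ratio between liver and brain was examined in male SJL/J and C57BL/6J mice, 2 inbred laboratory strains, at 8 weeks of age. For each probe, the mean log2 ratio of SJL/J over C57BL/6J on the 3 brain arrays was subtracted from that on the 3 liver arrays. A positive difference therefore means that the SJL/J pool stood higher, relative to the C57BL/6J pool, in liver than in brain. It says nothing of whether the gene is more abundant in liver. The 16874 probes with a single gene symbol (15096 genes) were described, of the 23040 probes on the array, and the 14692 of them whose probe number is not a multiple of 8 were kept apart from the 2182 whose number is.

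Each array set a pool of RNA from 5 SJL/J males, labelled with Alexa Fluor 647, against a pool from 5 C57BL/6J males, labelled with Alexa Fluor 555. Brain here was whole brain, so all its cell types are mixed. Arrays of one tissue repeat the same hybridisation of 2 pools and the dyes were not exchanged, so every SD, SE and p-value below covers the spread between arrays and not between mice. In bulk tissue fewer cells of a type and less RNA per cell cannot be told apart. The deposited table holds ratios and no levels, so the labelled tissues could not be checked against marker levels. The log base and the direction of the ratio were inferred, from the conventions of the authors' software, the dyes and how the titles name the strains.

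Liver makes most plasma proteins, and during inflammation hepatocytes switch on the acute phase genes, whose transcription is driven by interleukin 6 through STAT3 and by factors of the C/EBP family. The same cells burn fatty acids in mitochondria and peroxisomes under the nuclear receptor PPAR alpha, and clear drugs and bile acids with cytochrome P450 enzymes, transferases and transporters. Brain shares the general machinery of the cell with liver but expresses few of these secreted and detoxifying proteins, while its neurons carry the synaptic genes that liver largely lacks.

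A probe or gene is called where the adjusted p of the difference was under 0.05 (limma, Benjamini-Hochberg). Of all 23040 probes, 9.25% were called, 5.10% higher and 4.15% lower in liver. Among the 14692 single-symbol probes away from multiples of 8, 663 were called higher and 753 lower. A difference of 2-fold (1 on the log2 scale) or more was reached by 238 and 217 of them. Most of these calls went with the liver ratio: of the 1416, 857 (60.5%) had a ratio called against 0 in liver alone and 387 (27.3%) in brain alone. In 89 (6.29%) both ratios were called with opposite signs, in 31 (2.19%) both had the same sign, and in 52 (3.67%) neither was called. Over all probes 12.8% and 12.4% had a liver ratio called above and below 0, and 10.4% and 9.87% a brain ratio.

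The array labelled Brain replicate 3 stood apart from the other brain arrays. Over the 14692 probes, Brain replicates 1 and 2 correlated at r = 0.7 with each other, while Brain replicate 3 correlated at 0.21 and 0.31 with them, at 0.32 to 0.38 with the kidney arrays and at 0.01 to 0.05 with the liver arrays. The liver arrays correlated at 0.72 to 0.77 among themselves. These correlations are across probes, which share array, dye and pool. On Brain replicate 3, 439 probes (2.99%) lay 1 or more from the mean of the other brain arrays, against 0.422% to 1.16% for every other array and its tissue's other arrays. The comparison was therefore repeated with Brain replicates 1 and 2 only. Of all probes 10.3% were then called, 5.19% higher and 5.13% lower. Among the single-symbol probes away from multiples of 8, 722 were then higher and 911 lower, and 1107 were called both ways with the same sign, which is 78.2% of the calls with the array and 67.8% of those without it. No probe was called both ways with opposite signs. Without Brain replicate 3 the share called in liver alone was 48.1% and that called in brain alone 38.7%.

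The differences also moved with position, taken here from the probe numbers in lines of 24. The layout of the spots on the array was not checked. Probes 16153 to 16176 had a median difference of 2.62 and probes 22297 to 22320 one of 2.47, with 21 of 24 spots called in each line. The medians of the lines were 2.40 and 2.43 in liver against 0.07 and -0.07 in brain and 0.17 and -0.09 in kidney, so the shift was on the liver arrays. The line with the next highest median had 0.81. Of the 15 highest named genes 12 lay in these 2 lines, and their part in those genes' ratios was not tested. Of 38 single-symbol probes there, 33 were called higher, and 11 once the medians of each line and then each column of spots had been subtracted on every array (centring of lines and columns).

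Other probes of the same gene gave a further check of the names. Outside these lines and away from multiples of 8, 160 called probes of 147 genes had another probe for the same gene, counting genes with up to 5 probes. Of 197 such pairs, the other probe was called with the same sign in 20 and with the opposite sign in 8. It was not called in 95 pairs with the same sign and in 74 with the opposite sign, so 58.4% of pairs had the same sign. Among calls of at least 2-fold 59.0% of 61 pairs had the same sign. A value below is thus that of 1 probe unless a second one is given.

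Acute phase genes that passed the test had, with 1 exception, a higher strain ratio in liver than in brain. Probes of a gene were averaged for the gene lists, and 15096 genes were tested, of which 5.61% were called higher and 6.00% lower (6.05% and 7.19% without Brain replicate 3). Of 30 measured acute phase genes 14 were called higher, 1 lower and 15 did not pass, with a median difference of 0.63 beside -0.03 over all genes. Without Brain replicate 3 the counts were 12 and 1 and the median 0.57. The liver arrays lay above all brain arrays in 19 of the 30 genes and below in 2 (14.1% and 16.2% of all genes). The list's median was 0.75, 0.72 and 0.68 on the liver arrays and 0.07, 0.06 and 0.14 on the brain arrays, so all 3 brain arrays lay near 0.

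Orm2, an orosomucoid that carries small molecules in plasma, read 2.68, 3.21 and 2.88 on the liver arrays and 0.02, -0.12 and 0.06 on the brain arrays, a difference of 2.93 (SE 0.15, adjusted p = 8.24e-07, limma over genes). Saa3, a serum amyloid A protein made by many inflamed tissues, had 2.12, 2.26 and 1.57 in liver against -0.02, -0.76 and -0.09 in brain (difference 2.27, SE 0.22, adjusted p = 8.21e-05). In both genes the brain ratio was near or below 0. Lcn2, which withholds iron from bacteria by binding their siderophores, was above 0 in both tissues, with 3.09, 4.0 and 3.10 in liver and 1.17, 1.33 and 1.15 in brain. Its difference was 2.18 (SE 0.23, adjusted p = 0.000161). Apcs, the serum amyloid P component, had 2.58, 2.39 and 2.39 against 0.23, 0.52 and 0.20 (difference 2.14, SE 0.13, adjusted p = 2.70e-06).

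The family members of these genes did not all move alike. The other orosomucoids Orm3 and Orm1 were called at 1.79 and 1.09, and the liver form Saa2 at 1.44 (adjusted p = 0.00448). Saa1 had 0.92 (adjusted p = 0.0692) and lay in one of the 2 lines described above, with -1.64 (adjusted p = 0.00492) after centring of lines and columns. Saa4, which is made constitutively, had -0.14 and was not called. The fibrinogen chains, which form clots, had 0.70 in Fgb (adjusted p = 0.0146) and 0.34 and 0.29 in Fga and Fgg, neither of which passed. Socs3, which is induced by STAT3 and damps the interleukin 6 signal, had 0.75, 0.90 and 0.71 in liver against 0.02, 0.22 and 0.10 in brain (difference 0.67, SE 0.12, adjusted p = 0.00646). The haptoglobin gene Hp, the C-reactive protein gene Crp and the hepcidin gene Hamp had 0.27, 0.04 and -0.22, and none passed.

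Il6ra, the receptor subunit that binds interleukin 6, was the only acute phase list member called the other way. It had 1.55, 0.05 and 1.35 in liver against 2.71, 3.0 and 1.85 in brain, so SJL/J stood higher in both tissues and more so in brain. The difference was -1.53 (SE 0.38, adjusted p = 0.0254), with adjusted p = 0.0513 after centring of lines and columns.

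The promoters of Orm2, Saa3 and Apcs, which are among the leading acute phase genes, are shown. These genes were picked for their large called-higher differences, so that they share a direction follows from the choice. Their promoters were searched for STAT and C/EBP motifs. Each runs from 250 bases before to 50 after the gene's start in RefSeq on GRCm38.p6, on the gene's strand. Capitals mark matches on either strand to TTCNNNGAA (STAT) or TTNCNNAA (C/EBP). Orm2 lies at chr4:63362199-63362498 (plus strand), Saa3 at chr7:46715627-46715926 (minus strand) and Apcs at chr1:172895005-172895304 (minus strand).
Orm2: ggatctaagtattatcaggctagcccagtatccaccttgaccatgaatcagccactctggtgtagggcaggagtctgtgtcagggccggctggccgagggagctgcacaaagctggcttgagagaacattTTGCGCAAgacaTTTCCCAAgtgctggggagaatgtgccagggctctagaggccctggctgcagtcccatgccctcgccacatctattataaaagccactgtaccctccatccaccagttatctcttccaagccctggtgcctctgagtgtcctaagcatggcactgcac
Saa3: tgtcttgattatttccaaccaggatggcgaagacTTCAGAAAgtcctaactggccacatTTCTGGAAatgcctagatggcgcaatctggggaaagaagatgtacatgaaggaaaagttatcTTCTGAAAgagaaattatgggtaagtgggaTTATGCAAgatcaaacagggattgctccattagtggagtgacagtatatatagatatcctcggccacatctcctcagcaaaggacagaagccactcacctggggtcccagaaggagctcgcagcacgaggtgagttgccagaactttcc
Apcs: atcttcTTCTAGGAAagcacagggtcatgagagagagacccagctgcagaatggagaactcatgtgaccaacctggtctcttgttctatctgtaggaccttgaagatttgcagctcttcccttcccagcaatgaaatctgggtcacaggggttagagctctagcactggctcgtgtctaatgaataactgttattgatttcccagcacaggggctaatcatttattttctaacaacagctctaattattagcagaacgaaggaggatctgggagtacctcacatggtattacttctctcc
The Orm2 window held 2 C/EBP matches, the Saa3 window 4 and the Apcs window 1 STAT match. Of windows not shown, that of Lcn2 held 1 C/EBP match and that of Il6ra, called the other way, held 2. Neither held a STAT match. Of the 30 measured members 25 had a promoter entry, of which 7 held a STAT match and 16 a C/EBP match. Over all 32851 promoters of the same length the shares were 8.3% and 40.7%. Among the 13 called-higher members with an entry, 5 held the STAT motif and 8 the C/EBP motif. A match is a match of letters and shows no binding.

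Most genes of PPAR alpha and fatty acid oxidation had a lower strain ratio in liver than in brain. Of 35 measured genes 21 were called lower, 0 higher and 14 did not pass, with a median of -1.0. Without Brain replicate 3 these values were 20, 0 and -0.99. In 27 genes all liver arrays lay below all brain arrays, and in 1 above. The medians of the list were -0.89, -1.11 and -1.06 on the liver arrays and -0.07, -0.08 and 0.22 on the brain arrays.

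Cyp4a10 and Cyp4a14, which hydroxylate the far end of fatty acids in the endoplasmic reticulum and are standard PPAR alpha targets, led the list. Cyp4a10 had -3.52, -3.91 and -2.41 in liver, the second of which is the lowest value in the table, and 0.03, -0.17 and 0.41 in brain. Its difference was -3.37 (SE 0.33, adjusted p = 8.67e-05, limma over genes). Cyp4a14 had -2.77, -3.52 and -2.96 against -0.07, -0.53 and 0.17 (difference -2.94, SE 0.22, adjusted p = 1.03e-05). Their sequences are close enough that 1 probe may read both. Cyp4a12a, the third Cyp4a gene measured, had -0.34 and did not pass (adjusted p = 0.506).

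Acaa1a, the thiolase that ends each round of peroxisomal beta-oxidation, had -1.69, -2.10 and -1.86 in liver against 0.23, 0.26 and 0.75 in brain. Its ratio was called below 0 in liver and above 0 in brain, and the kidney mean was 0.96. The difference was -2.30 (SE 0.17, adjusted p = 9.98e-06). Aldh3a2, which oxidises fatty aldehydes, had -2.37, -1.50 and -2.34 against 0.07, 0.03 and -0.28 (difference -2.01, SE 0.23, adjusted p = 0.000283). Ppara, the receptor gene, was itself lower, with -1.23, -1.71 and -1.34 in liver and -0.23, -0.09 and 0.16 in brain (difference -1.37, SE 0.16, adjusted p = 0.000425).

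Both peroxisomal and mitochondrial steps were among the called genes. In peroxisomes Ehhadh and Hsd17b4, the bifunctional enzymes, had -1.64 and -1.14, and Pex11a, which divides peroxisomes, had -1.08. In mitochondria Cpt2 and Slc25a20, which bring in carnitine esters, had -1.60 and -1.75, and Decr1, an auxiliary enzyme for unsaturated fatty acids, -1.66. Eci2, another auxiliary enzyme for unsaturated fatty acids, had -1.81. The acyl-CoA dehydrogenases that open the cycle did not pass: Acadm had -0.37, Acadl -0.13, Acads -0.11 and Acadvl -0.57. Cpt1a, the rate-setting carnitine transferase, had -0.37 (adjusted p = 0.0620). The secreted targets Fgf21 and Angptl4 had -0.38 and -0.40 and did not pass, and neither did the lipid carrier Fabp1 at 0.25.

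The promoter of Acaa1a is shown because its ratio had opposite signs in liver and brain. It lies at chr9:119341044-119341343 (plus strand) on GRCm38.p6, and capitals again mark the STAT and C/EBP motifs (the DR1 direct repeat bound by PPAR alpha with RXR was searched too).
Acaa1a: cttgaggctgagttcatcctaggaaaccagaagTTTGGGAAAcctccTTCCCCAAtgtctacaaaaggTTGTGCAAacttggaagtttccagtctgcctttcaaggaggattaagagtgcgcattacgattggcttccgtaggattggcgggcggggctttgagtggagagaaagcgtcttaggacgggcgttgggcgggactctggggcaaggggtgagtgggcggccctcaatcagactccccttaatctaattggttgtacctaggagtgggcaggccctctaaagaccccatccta
This window held 4 C/EBP matches, of which 1 pair overlapped, and 0 of the DR1 repeat. Of the 35 members 27 had a promoter entry, and 1 of these held DR1, against 0.381% of all promoters. STAT and C/EBP matches stood in 2 and 12 of the 27. The palindrome of the hepatocyte factor HNF1 was in 0 of the entries of either list and in 0.00913% of all promoters.

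In the list of respiratory complexes and ATP synthase (oxidative phosphorylation) the genes that passed were all lower in liver, but most did not pass. Of 67 genes 13 were called lower, 0 higher and 54 did not pass (median -0.55), against 11, 0 and -0.36 without Brain replicate 3. Part of the difference was on that array, where the list's median was 0.36 against -0.08 and -0.05 on the other brain arrays. The liver arrays had -0.55, -0.54 and -0.35. Atp5h, of ATP synthase, had -0.91, -0.84 and -0.55 in liver and 0.06, 0.21 and 1.07 in brain (difference -1.21, SE 0.24, adjusted p = 0.00992). Cox5b, of cytochrome oxidase, had -1.17 with 1.08 on Brain replicate 3 and -0.79 without it (adjusted p = 0.0183). Ndufa1, of complex I, had -1.25 and was not called without that array (-0.92, adjusted p = 0.0581).

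Cytosolic ribosomal proteins leaned most on Brain replicate 3. Of 63 genes 6 were called lower, 0 higher and 57 did not pass, a share near that of all genes, with a median of -0.49. The list's median was 0.70 on Brain replicate 3, against -0.13 and 0.00 on the other brain arrays and -0.41, -0.36 and -0.14 on the liver arrays. Without the array 4 were called lower and the median was -0.22. Rps20, of the small subunit, had -0.56, -1.72 and -1.28 in liver against 0.02, -0.22 and 0.22 in brain, and was called with the array (difference -1.19, SE 0.24, adjusted p = 0.0107) and without it (-1.09, adjusted p = 0.0249). Proteasome subunits were alike, with 5 of 32 called lower and 0 higher (3 and 0 without the array) and medians of -0.37 and -0.24. Psmb7, a catalytic subunit, had -0.98 with 0.63 on Brain replicate 3, and -0.67 without that array.

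Enzymes that clear drugs and steroids were mostly lower where they were called. Of 43 cytochrome P450 genes outside the Cyp4 family 9 were called lower and 3 higher (median -0.15, and 9 and 3 without Brain replicate 3). The 4 lowest were all Cyp3a genes, whose products oxidise many drugs and steroids and whose sequences are alike. Cyp3a16 had -2.09, -1.68 and -1.67 in liver against -0.19, -0.29 and 0.17 in brain (difference -1.71, SE 0.16, adjusted p = 7.17e-05). Cyp3a44, Cyp3a13 and Cyp3a25 had -1.98, -1.82 and -1.31, each with a wider spread over the liver arrays. Cyp2f2 had 1.04 in the other direction, at a multiple of 8, with brain ratios of -0.48, -1.05 and -0.73.

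Glutathione transferases, which conjugate electrophiles, had 7 of 22 genes called lower and 1 higher (median -0.26, and 6 and 1 without Brain replicate 3). Gsta1 had -2.17, -2.02 and -1.74 in liver against -0.05, 0.00 and -0.37 in brain (difference -1.84, SE 0.21, adjusted p = 0.000340). Gstm2 and Gstm6 had -1.64 and -1.27, and Gstp1 had -1.71, which was lost without Brain replicate 3 (-1.47, adjusted p = 0.0967). Gstm4 was called higher, at 0.50 (adjusted p = 0.0475), and had 0.52 (adjusted p = 0.0561) without that array. Of 19 glucuronosyl and sulfotransferases 6 were called lower and 2 higher (median -0.31), and without that array 5 and 0. The median of this list was 0.01 after centring of lines and columns. Ugt2b1 had -1.91, -1.76 and -1.72 against 0.09, -0.23 and -0.33 (difference -1.64, SE 0.16, adjusted p = 8.33e-05). Sult1c2 had 1.23, 1.56 and 3.40 against 0.97, 0.25 and -1.07, so its call (2.02, adjusted p = 0.0445) leaned on replicate 3 of each tissue and was lost without Brain replicate 3 (1.46, adjusted p = 0.103).

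Bile acid genes gave 5 of 26 lower and 0 higher (median -0.27), and 3 and 0 without Brain replicate 3. Hsd3b7, an early enzyme of bile acid synthesis, had -2.05, -2.26 and -2.38 in liver against -0.08, -0.28 and 0.03 in brain (difference -2.12, SE 0.14, adjusted p = 3.65e-06). The export pump gene Abcc3, at a multiple of 8, had -1.84, and the co-receptor gene Klb had -0.56 (adjusted p = 0.0442).

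Amino acid breakdown and the urea cycle had 12 of 47 genes lower and 1 higher (median -0.36, and 13 and 1 without Brain replicate 3). Oat, ornithine aminotransferase, had -2.59, -2.51 and -2.63 in liver against -0.47, -0.28 and 0.46 in brain (difference -2.48, SE 0.20, adjusted p = 2.49e-05). Tdo2 and Hao1, which open the breakdown of tryptophan and oxidise glycolate, had -1.57 and -1.08. Glud1, glutamate dehydrogenase, had -1.30, and -1.0 without Brain replicate 3. Cps1, the entry enzyme of the urea cycle, was higher, with 0.91, 0.52 and 0.66 against -0.01, -0.12 and -0.01 (difference 0.74, SE 0.15, adjusted p = 0.0116).

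Of 35 genes of gluconeogenesis, glycogen and glycolysis 7 were lower and 2 higher (median -0.27), and 8 and 2 without Brain replicate 3. After centring of lines and columns 2 were lower and 2 higher. G6pc, the glucose-releasing phosphatase, was below 0 in both tissues, with -2.73, -2.86 and -2.59 in liver and -1.88, -1.72 and -1.03 in brain (difference -1.18, SE 0.21, adjusted p = 0.00469). Cholesterol synthesis and uptake gave 0 of 22 in either direction (1 and 1 without Brain replicate 3), with a median of -0.06. Fatty acid synthesis had 4 of 27 lower and 1 higher, led by Fads2, the delta-6 desaturase, at -1.61 (SE 0.20, adjusted p = 0.000499) and Fasn, fatty acid synthase, at -1.30 (SE 0.18, adjusted p = 0.00114). Its median was 0.00.

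Selenium and antioxidant genes held some of the lowest differences. Of 23 selenium genes 6 were lower and 1 higher (median -0.31, and 5 and 1 without Brain replicate 3). Selenbp1, a selenium-binding protein that oxidises methanethiol, had -3.25, -2.76 and -2.91 in liver against 0.02, -0.05 and -0.04 in brain (difference -2.95, SE 0.16, adjusted p = 1.17e-06). Its close relative Selenbp2 had -2.32 (SE 0.27), and the pair may share signal. Dio1, the deiodinase that activates thyroid hormone, had -2.26, -3.33 and -3.72 against -0.19, -0.10 and -0.40 (difference -2.87, SE 0.29, adjusted p = 0.000116). Of 26 antioxidant genes 5 were lower and 2 higher, and without Brain replicate 3 4 and 1. Txn1, thioredoxin, had -1.89 (SE 0.20), whereas Hmox1, the inducible haem oxygenase, had 1.0 (SE 0.15, adjusted p = 0.00199, limma over genes). After centring of lines and columns Txn1 kept its call, and so did Hmox1 and Sod3, the 2 higher genes. Sod2, Gsr, Prdx3 and Ephx1, the other antioxidant genes called lower, did not.

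Hepatocyte markers and plasma carriers were higher in part. Of 24 hepatocyte markers 7 were higher and 2 lower (median 0.33), and the counts were the same without Brain replicate 3, with a median of 0.51. The 2 lower were Tdo2 at -1.57 (SE 0.17) and Asgr1, of the asialoglycoprotein receptor, at -0.82 (SE 0.14). Alb, serum albumin, had 1.39, 1.0 and 0.80 in liver against 0.21, -0.01 and -0.06 in brain (difference 1.02, SE 0.18, adjusted p = 0.00540). Serpina1a, an inhibitor of elastase, had 1.09 (SE 0.25, adjusted p = 0.0180). Mup3, a major urinary protein made by male liver, had 1.59 over 2 probes, of which one gave 2.29 and was called and the other 0.88 and was not (adjusted p = 0.0750). Mup genes are near copies of each other, so their signals cannot be told apart. Of 26 apolipoproteins and carriers 6 were higher and 1 lower, that one being Apoa4 at -0.94. Some of these genes stand in more than one list.

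Trf, transferrin, which carries iron in plasma and is also made by oligodendrocytes, was read by 4 probes. The one named by rule had 1.61, 1.11 and 0.73 in liver against -0.93, -0.81 and -0.19 in brain (difference 1.79, SE 0.24, adjusted p = 0.00183, limma over probes). Of the other probes, one pair gave 1.28 and 1.08, both called and both with opposite signs in the tissues, and the last 0.21, not called. This was the best repeated of the named genes read by several probes.

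Markers of other cells in either tissue were called less evenly. Among 24 markers of Kupffer cells, macrophages and microglia 5 were higher and 0 lower (median 0.24), and 7 and 0 without Brain replicate 3. Itgb2, an integrin of leukocytes, had 0.76 (adjusted p = 0.0266, limma over genes), with means of 0.22 in liver and -0.55 in brain. C1qc, of complement C1q, had 0.62 (adjusted p = 0.0365), with means of 0.28 and -0.34. In Cd5l, also called, the means were 0.51 and 0.05. P2ry12 and Clec4f lost their calls after centring of lines and columns. The called markers had differences of the same sign as most called acute phase genes, whose list had brain medians near 0. The part of the markers in the acute phase result was not tested. Of 28 lymphocyte and granulocyte markers 2 were higher and 0 lower, S100a8 and Ngp, both of neutrophils, at 0.95 and 0.53 (for S100a8 adjusted p = 0.0356, and 0.0627 without Brain replicate 3). Complement and coagulation gave 6 of 44 higher and 4 lower (median -0.02). Of 28 MHC genes 5 were higher and 2 lower. Psmb9, an immunoproteasome subunit at a multiple of 8, had 0.06, 0.36 and 0.31 in liver against -1.07, -1.08 and -0.97 in brain (difference 1.28, SE 0.13, adjusted p = 0.000108), and the kidney mean was -0.99. The interferon list, which shares Psmb9, had 2 of 34 higher and 0 lower.

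Among the remaining lists, chaperones had 5 of 40 higher and 3 lower (5.61% and 6.00% over all genes). Dnajb1, an inducible co-chaperone of Hsp70, had 2.33, 3.30 and 2.75 in liver against 0.13, 0.13 and 0.29 in brain (difference 2.61, SE 0.20, adjusted p = 1.78e-05). Circadian clock genes had 3 of 16 lower and 0 higher, led by Rora at -0.82, and 5 and 0 without Brain replicate 3, but 1 and 0 after centring of lines and columns. Growth hormone and IGF genes had 2 of 25 in each direction, with Irs2, an insulin receptor substrate, at 1.82 (SE 0.23, adjusted p = 0.000550) and Igfbp2, a binding protein of IGF, at -1.45 (SE 0.20, adjusted p = 0.000963). Metallothioneins and glucocorticoid targets had 2 of 23 higher and 1 lower, one of the former being Mt1, which lies in an outlying line. Erythroid genes had 1 of 14 higher and 4 lower, the higher being Tfrc, which has a probe in a line. Kidney markers had 2 of 25 lower, endothelial, stellate and bile duct markers 1 of 22 higher, and immediate early genes 1 of 24 lower, Bdnf, a neurotrophin, at -0.99 (SE 0.15, adjusted p = 0.00190).

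Single probes with the lowest differences were nearly all low in liver with brain near 0. The rule took probes called with and without Brain replicate 3, with the liver arrays all on one side of the brain arrays, and 533 higher and 571 lower probes met it (over all probes 29.6% had the tissues apart). The lowest was 1700110I01Rik, an uncharacterised gene, with -3.72, -3.25 and -3.52 in liver and 0.10, -0.07 and 0.17 in brain (difference -3.56, SE 0.26, adjusted p = 3.60e-05, limma over probes). It was also below 0 in kidney, with a mean of -1.58. The probes before and after it had differences of -1.05 and -3.81. The uncharacterised 2310043L19Rik and 2200002J24Rik had -3.04 and -2.56. Hdac1, a histone deacetylase, had -2.47, -2.36 and -2.51 against 0.18, 0.15 and 0.25 (difference -2.64, SE 0.12, adjusted p = 3.05e-06). Krtcap3 had -2.63, and Hsd3b1, which makes steroid hormones, -2.41. Foxq1, a forkhead factor, had -2.41 at one probe and -0.23 at another, which was not called. Fpr2, a receptor for formyl peptides and serum amyloid A, had -2.21, -1.99 and -2.47 in liver and 1.02, 0.83 and -0.55 in brain, with a difference of -2.66 that became -3.15 without Brain replicate 3.

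In the other direction Gp2, a glycoprotein of zymogen granules in the pancreas, had the highest difference of all. It read 3.58, 4.06 and 3.73 in liver and -1.29, -1.46 and -0.64 in brain, with a kidney mean of 0.12 (difference 4.92, SE 0.21, adjusted p = 2.71e-06, limma over probes). Its line of spots had a median of 0.02, but the probe before it had a difference of 1.92 and the one after it 0.39. Outside the 2 outlying lines it was followed by Gadl1, a decarboxylase of amino acids, with 2.62, 2.34 and 3.96 against 0.31, 0.31 and -1.20 (difference 3.17, SE 0.53, adjusted p = 0.00599). Col3a1, a fibrillar collagen, had 2.62, 2.62 and 2.53 against 0.23, -0.25 and -0.23 (difference 2.68, SE 0.17, adjusted p = 1.32e-05). Hspa8, the constitutive Hsp70, had 2.68 at one probe and -0.62 at another, at a multiple of 8, which was not called. The probes before and after the first had 2.43 and 0.31, the former being that of Dmrtb1. Saa-ps, a serum amyloid A pseudogene near-identical in part to the Saa genes, had 2.62 with liver values from 1.97 to 3.66.

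Besides these and Orm2, Dnajb1, Mup3 and Saa3, given above, 6 more genes made up the 15 highest outside the lines. Stx6, a syntaxin of the trans-Golgi, had 2.90, 2.48 and 2.60 in liver against 0.17, 0.30 and 0.10 in brain (difference 2.47, SE 0.14, adjusted p = 6.49e-06). Ncbp2, of the cap-binding complex, had 2.35, in a line with a median of 0.71, and 1.78 after centring of lines and columns. The probes before and after it had 1.82 and 1.88. Rbm31y had 2.31 and the probe next to it 2.18. Card10, a scaffold of NF-kB signalling, had 2.28, Mier2 2.25 and Fgf22, a fibroblast growth factor, 2.20. All 15 lowest and all 15 highest outside the lines kept their call after centring of lines and columns. However, 4 of the 15 lowest and 5 of the 15 highest lay next to a probe called with the same sign. Over all probes 5.10% were called higher and 4.15% lower. The share of all probes that lie next to such a call is not given here, so these counts cannot be judged against it. The part of position in their ratios was not tested.

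Within the 2 lines, the named genes kept less of their difference after centring of lines and columns. Serpina1f, of the serpin family, had 4.16 and then 1.65, Cd209e, a lectin of immune cells, 4.02 and 1.46, and Mt1, a metallothionein, 4.01 and 1.72. Ear-ps1 had 3.61 and 1.06, 1700066C05Rik 3.27 and 0.71, Cd244a 3.17 and 0.61, and Fam120b 2.99 and 0.72. Lysmd2 had 2.89 and 0.60. Rap2b (3.05 and 0.52), Nrgn (2.93 and 0.39) and Krt6a (2.79 and 0.22) were then no longer called. Tfrc, the transferrin receptor, had 2.95 and 0.67, and -0.41 at a probe elsewhere.

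A few probes had ratios called with opposite signs, so that SJL/J stood above C57BL/6J in one tissue and below it in the other. Besides Gp2, Acaa1a and Trf, these included Alas2, the erythroid enzyme that begins haem synthesis, with -1.63, -2.32 and -1.93 in liver against 0.45, 0.71 and 1.20 in brain (difference -2.74, SE 0.22, adjusted p = 5.73e-05, limma over probes). Caap1, an apoptosis inhibitor, had -1.68, -1.23 and -1.48 against 0.47, 0.69 and 0.26 (difference -1.94, SE 0.19), but its other probe gave -0.25. Kmt5b, a histone H4 methyltransferase, had 1.27, 1.54 and 1.10 against -0.36, -0.35 and -0.56 (difference 1.73, SE 0.15). 4930550L24Rik had 1.97, and Trbv3, a T cell receptor segment, 1.72, while 3 other Trbv3 probes gave 0.05 to 0.26.

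Where the brain ratio was called and the liver ratio was not, the lead was taken by Olfr76, an olfactory receptor gene. It had 3.36, 2.76 and 2.90 in brain against -0.48, 0.09 and 0.08 in liver, and a kidney mean of 0.31 (difference -3.11, SE 0.20, adjusted p = 1.30e-05, limma over probes). Thbs2, a thrombospondin of the matrix, had 2.67, 2.62 and 1.64 in brain against -0.11, -0.13 and -0.03 in liver (difference -2.40, SE 0.24). Erlin1, of the endoplasmic reticulum, was low in brain, with -2.40, -2.24 and -0.87 against 0.08, 0.27 and 0.20 (difference 2.02, SE 0.32). Dtd2 had 2.42, 2.59 and -0.17 in brain, and its difference moved from -2.34 to -3.24 without Brain replicate 3. Its call was lost without any other single brain or liver array (adjusted p from 0.0676 to 0.105) and with the 6 arrays of these tissues only (adjusted p = 0.0775). Chst11, Pard3b and Eno3 had -2.08, -1.90 and -1.90, but their other probes gave -0.08, 0.17 and 0.29, none of which passed. 4930445E18Rik had 1.83.

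In the lists of synaptic, neuron, astrocyte, oligodendrocyte and receptor genes more members were called when Brain replicate 3 was left out. Over all genes the called share rose too, from 11.6% to 13.2%, and the oligodendrocyte and receptor lists stayed near it. Of 41 synaptic vesicle and SNARE genes 1 was higher and 2 lower with all arrays, and 3 and 8 without it. Of 25 neuron markers 1 was higher and 2 lower, against 3 and 4, and the sign of their median turned from -0.09 to 0.05. The marker called higher with all arrays was Nrgn, of postsynaptic neurons, which lies in one of the outlying lines and had 0.39 (adjusted p = 0.400) after centring of lines and columns. Of 13 astrocyte markers 0 were higher and 1 lower, against 0 and 3, of 20 oligodendrocyte markers 1 and 1 against 2 and 1, and of 50 neurotransmitter receptors 1 and 3 against 2 and 5. Syt1, the calcium sensor of synaptic release, had 1.43, 1.68 and -0.29 in brain against -0.05, -0.32 and -0.50 in liver. Its difference was -1.23 (adjusted p = 0.0687, limma over genes) with all arrays and -1.84 (adjusted p = 0.000116) with Brain replicates 1 and 2. On Brain replicate 3 its value lay within the range of the liver arrays.

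Slc1a2, the main glutamate transporter of astrocytes, had 0.95, 1.21 and -0.65 in brain against -0.11, -0.12 and -0.02 in liver (-1.16 without the array, adjusted p = 0.000443, limma over genes). Its value on Brain replicate 3 lay below the liver arrays and those on the other brain arrays above them. Cplx2, a complexin, had 1.21, 1.33 and 0.15 in brain and -1.13 without the array. Sv2b, of synaptic vesicles, had 0.67, 1.38 and -0.65, and Dnm1, the neuronal dynamin, 0.70, 0.91 and 0.09. Mog, of myelin, went the other way, with -1.45, -0.97 and -0.48 in brain and 0.96 without the array. So did the neuron markers Syn1 (-0.57, -0.25 and 0.27 in brain) and Stmn2 (-0.75, -0.16 and 0.22), with 0.74 and 0.62 without the array. Stmn3 (0.06, -0.02 and 1.06) and Eno2 (-0.09, -0.09 and 0.79) were also highest on Brain replicate 3. Gap43, a growth cone protein, was called with and without the array, at -1.03 and -0.92, and had 0.37, 0.57 and 0.79 in brain. Chrm3, a muscarinic receptor, was called both ways through its liver ratio, which averaged -1.95.

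Over all genes, 526 of the 14692 probes were called only without Brain replicate 3, and the brain ratio itself was called in 414 of them. The largest, Kdm8, a hydroxylase of the Jumonji family, had 2.58, 2.89 and -0.11 in brain against -0.19, -0.51 and -0.38 in liver, with a difference of -3.10 without the array (adjusted p = 1.43e-05, limma over probes) and -2.15 with it (adjusted p = 0.0552). Gm26504, Ubxn6, Rdm1 and Fbxl14 had -2.93, -2.47, -2.39 and -2.33 without the array. In all 5 the value on Brain replicate 3 lay between -0.31 and -0.04. Another 309 probes were called only with the array, and 29 of these had a difference of at least 2-fold. The largest of these, Bbs10, a chaperonin-like protein of cilia, had -3.33, -3.17 and -0.53 in liver and only -0.27, -0.09 and -0.30 in brain, so its brain arrays lay together and its liver arrays did not. Its adjusted p was 0.0475 with the array and 0.0765 without it. Ephx1, Tmem238l, Eef1akmt2 and Mettl6 likewise had Liver replicate 3 away from the other liver arrays. The calls of these 5 were also lost without Brain replicate 2 or Liver replicate 1, and some without other arrays.

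Single-symbol probes at multiples of 8 leaned to higher calls, unlike the other single-symbol probes. Probes without a symbol leaned the same way, with 354 of 6032 called higher and 148 lower. Of the 2182 at multiples of 8 with a single symbol, 153 were called higher and 53 lower, and 69 and 14 of these by at least 2-fold. Without Brain replicate 3 the counts were 146 and 76. The highest outside the outlying lines was 1700086P04Rik, with 3.13, 3.15 and 3.05 in liver against -0.04, -0.04 and -0.64 in brain (difference 3.35, SE 0.17, adjusted p = 3.91e-06, limma over probes). Ankfy1, of endosomes, had 2.53 and Dmrtb1 2.43, or 1.82 without Brain replicate 3. The Dmrtb1 probe comes directly before the Hspa8 probe named above, so these may not be separate results. Abl1 and Manbal had 3.54 and 3.36 but lie in the lines, and other Abl1 probes gave 0.25 and 0.45. Lowest were 2810030D12Rik at -2.08, Scg5, a chaperone of prohormone convertase 2, at -2.01 with brain values of 0.89, 0.92 and 1.60, and Abcc3 at -1.84. Nfyb, a CCAAT-binding subunit, had -1.44 and 9330198N18Rik -1.41, whose call was lost without Brain replicate 2 (adjusted p = 0.0906) or Liver replicate 1 (adjusted p = 0.0570). The 232 spots of Gapdh, a glycolytic enzyme often used as a reference, of which 231 lie at multiples of 8, had a median difference of -0.34, from -1.09 to 1.11, and -0.17 without Brain replicate 3.

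Nnt, a mitochondrial transhydrogenase gene known for its deletion in C57BL/6J, showed no call between the tissues. It read 0.72, 0.51 and 0.20 in liver and 0.25, 0.51 and 1.06 in brain, and the tissues overlapped. The difference was -0.13 (SE 0.27, adjusted p = 0.796, limma over probes) and 0.10 (SE 0.26, adjusted p = 0.850) without Brain replicate 3.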

How the data were processed

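Strain ratios of 3 liver and 3 brain arrays were compared, and the 3 kidney arrays entered the fit. The deposited values are log2 ratios per spot, made by the authors with R 2.0.0 and limma per the submitters' processing notes. Whether background was corrected is not given in the sources used here. The authors' log2 base and the direction, SJL/J over C57BL/6J, were inferred as stated in the report. All arrays had the same sorted values, with a median of 0.01, a range of -3.91 to 5.09 and 0 missing, so their distributions had been made equal. Liver and kidney arrays were placed by their titles, although 1 tissue tag of theirs says brain. Dim spots could not be filtered without intensities, and precision is limited by how many arrays there are.

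The tissue means of the 9 arrays were fitted together in limma 3.58.1 under R 4.3.3 (lmFit, eBayes, 6 residual degrees of freedom, prior SD 0.20 on 4.24). The contrast liver minus brain was tested two-sided with Benjamini-Hochberg adjustment over all 23040 probes at 0.05. The lists rest on a second fit over 15096 genes, each the average of its probes. The script was tested on simulated data. Lines are 24 consecutive probe numbers and columns the numbers with 1 remainder on division by 24. That these match lines and columns of spots on the array was assumed.

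Named probes had a single symbol, stood away from multiples of 8, were called with and without Brain replicate 3 with the same sign, and had liver and brain arrays apart. The 15 highest and 15 lowest were taken, with the 8 largest whose ratios were called with opposite signs and the 8 largest called in brain and not in liver. The most extreme probe of a gene stood for it. Another 5 per direction at multiples of 8, 5 called only with and 5 only without Brain replicate 3, up to 4 genes per list with 1 in the other direction, and Nnt were added. Further members of the acute phase, PPAR alpha and neural lists were named after their values were seen, to show family members and steps that did not pass. The members, lists and rules were chosen with earlier results of these data known, and the rules were repeated without the 2 outlying lines after the data were seen. Of 1212 genes written in 35 lists, 1005 were measured. Promoters are from RefSeq (GRCm38.p6). Symbols are those of the platform annotation.

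Alternatives were 6 arrays only, each liver or brain array left out, the replicate number as a block, array weights, robust empirical Bayes, centring of lines and columns, and other probe sets.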

Additional observations from a re-analysis of the deposited data

Results flagged for a closer look

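The results below stand out because the strain ratio itself was called in opposite directions in liver and brain (limma), and the difference between the tissues was tested by the contrast of the report. Outside the outlying lines of spots these were Gp2 at 4.92, Alas2 at -2.74, Acaa1a at -2.30, 4930550L24Rik at 1.97, Caap1 at -1.94, Trf at 1.79, Kmt5b at 1.73 and Trbv3 at 1.72. Trf was repeated by 2 of 3 other probes, Caap1 and Trbv3 by none of theirs. Within the lines they were Serpina1f at 4.16, Cd209e at 4.02, Ear-ps1 at 3.61, Tfrc at 2.95 and Cttnbp2 at 2.73. The lines' shift was on the liver arrays, and after centring of lines and columns these 5 had 1.65, 1.46, 1.06, 0.67 and 0.43.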

How the results depend on the processing

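The counts of called probes moved with the arrays used. With 6 arrays only, kidney left out, 642 probes were higher and 518 lower over all probes, against 1175 and 957, and 366 and 385 among single-symbol probes away from multiples of 8, against 663 and 753. With 1 array left out, all probes gave 622 to 1300 higher and 479 to 1183 lower, and the single-symbol probes 365 to 722 and 374 to 911. The lowest counts came without Liver replicate 1 (622 and 479 over all probes), and counts also fell by over 1.5 times without Liver replicate 2 (674 and 536), Liver replicate 3 (780 and 596) and Brain replicate 2 (717 and 536). Replicate numbers showed no pairing, with correlations of liver and brain deviations of 0.05, 0.00 and 0.04 for the 3 numbers. The fit with the replicate number as a block gave 943 higher and 782 lower over all probes and 534 and 598 among the single-symbol probes. After centring of lines and columns, 604 and 566 of the single-symbol probes were called. No named difference changed sign except Nnt, which was not called in any setting. The named probes, other than Nnt and those called only with or only without Brain replicate 3, were chosen with liver and brain arrays apart. Leaving out 1 array could therefore not change the sign of those probes. Nnt ranged from -0.31 to 0.10 with 1 array left out, with 0.10 without Brain replicate 3 and 0.01 without Liver replicate 3. It had 0.15 without Brain replicate 3 and with centring, a setting chosen after seeing the data. Of 72 named differences, between 0 and 9 lost their call per setting, most with centring and Brain replicate 3 left out. The causes were not tested. Dim spots and differences between mice could not be examined.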
